A study of Mus musculus with 68 samples.

Results

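The 6 genes described here encode the channels that carry inward current between the spikes of a slowly firing neuron. They are Hcn2, Hcn3 and Hcn4, which encode pore-forming subunits of the hyperpolarization-activated HCN channels, and Nalcn, Unc79 and Unc80, which encode the sodium leak channel NALCN and 2 of its large accessory proteins. They were taken by gene symbol, each matching 1 of the 36172 rows of a table of single-cell RNA counts. The rule that picks them uses their symbols and no measured value, but the 6 were chosen with earlier results of these data known.

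The RNA came from dopamine neurons of the ventral tegmental area, a midbrain region whose dopamine cells fire on their own without synaptic input. In Patch-seq, the contents of a neuron are drawn into the pipette after its currents have been recorded, so that each library is 1 cell. There were 33 cells from 3xTg mice and 35 from WT mice, all at 12 months of age. The 3xTg mouse is a model of Alzheimer's disease that is homozygous for 3 humanized transgenes, APPSwe and TauP301L among them. The WT mice came from a separate non-transgenic line on the same hybrid background, partly C57BL/6, kept in parallel and not as littermates, and neither group was given a treatment in the labels. No label names the mouse of a cell. Each genotype was therefore 1 sample, no test between genotypes was made, and an SD over cells is that of cells, not of mice.

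HCN channels open when the membrane is hyperpolarized and pass sodium and potassium, which pulls the voltage back towards threshold. Cyclic AMP binds to their intracellular end and eases opening, so receptors that raise or lower it tune the current. NALCN is open at rest and leaks sodium. It needs UNC79, UNC80 and a FAM155 protein to work at the membrane, and G protein-coupled receptors for substance P, neurotensin, dopamine and GABA modulate it. In midbrain dopamine neurons both currents are known contributors to pacemaking and to the resting potential.

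The total deposited count ranged from 676556 to 1678624 per cell in 3xTg and from 492505 to 1327367 in WT, and a median of 8511 and 7476 genes had a count in a cell. Over 12821 genes with at least 1 normalized count in at least 7 of the 68 cells, the median gene had a count in 7.10 percentage points more of the 3xTg cells, and its mean log2 level lay 0.38 higher in 3xTg. All 68 cells had counts of Th, Slc6a3, Slc18a2 and Ddc, the enzymes and transporters that define a dopamine neuron. The first 3 of these genes had been used to keep cells. The number in a cell's label ran from 1 to 22 in WT and from 24 to 55 in 3xTg (the first runs), from 57 to 74 in WT and from 76 to 92 in 3xTg (the second runs), and from 94 to 96 in 3 WT cells. What these numbers mark is not stated. The second runs detected more genes per cell, with medians of 9308 against 7648 in 3xTg and 8441 against 5233 in WT.

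Of the 6 genes, those of the NALCN complex were the more widely counted, and the HCN genes were counted in few neurons. At least 1 of Nalcn, Unc79 and Unc80 was counted in 29 of 33 3xTg and 32 of 35 WT neurons, and at least 1 of Hcn2, Hcn3 and Hcn4 in 15 and 9. Between the genotypes, Nalcn and Hcn3 were counted in more 3xTg than WT neurons. Unc80 was counted in about the same share of both, with fewer counts per neuron in 3xTg, and Unc79 differed in opposite directions in the first and the second runs, as did the summed counts of Nalcn. Hcn2 and Hcn4 had too few counts for a comparison.

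**Figure D1:**
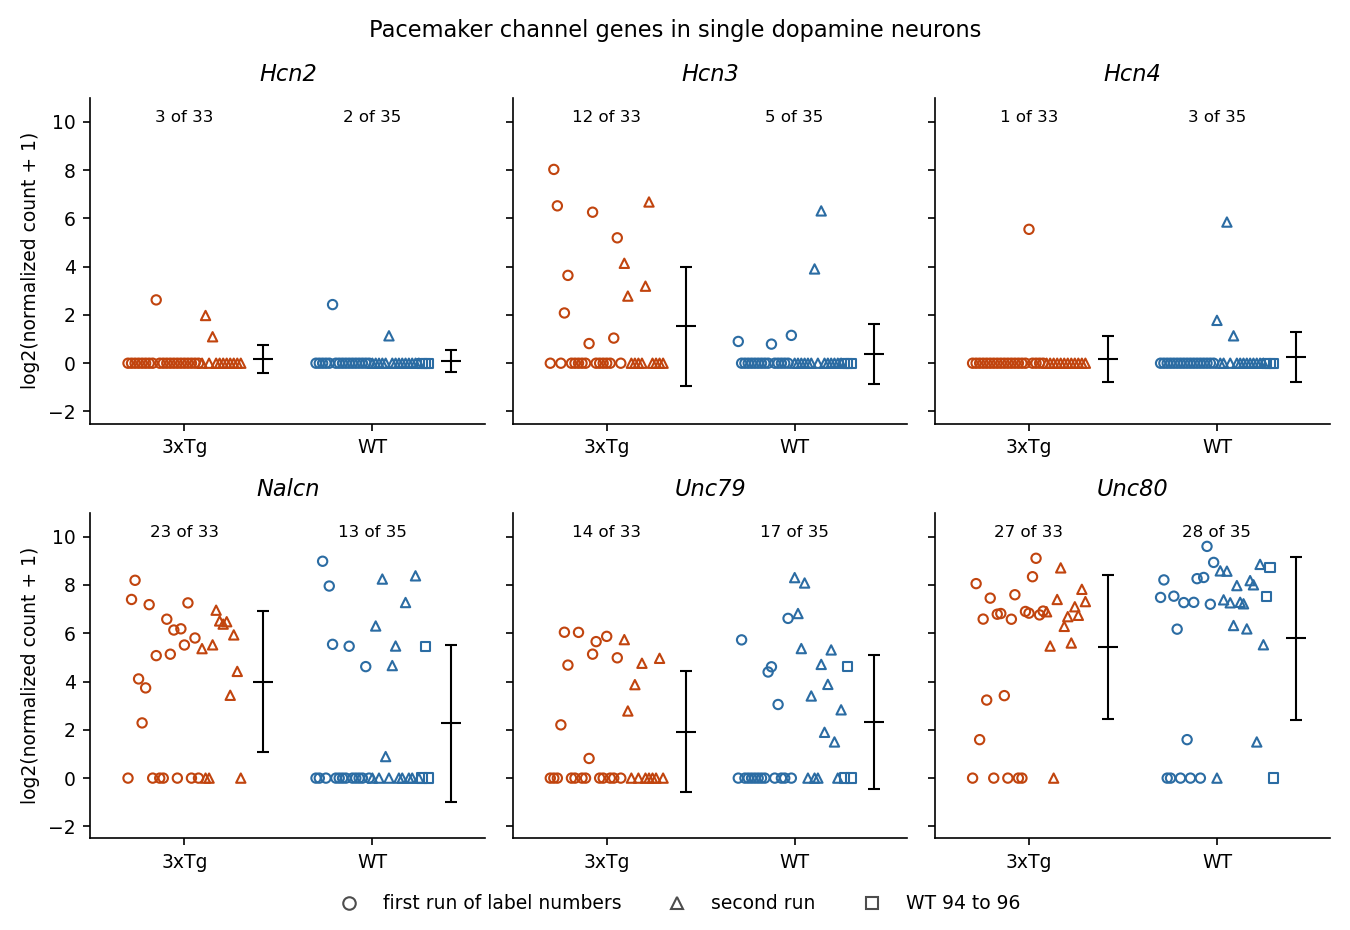
Each panel plots 1 gene, and each point is 1 neuron, with log2(normalized count + 1) on the vertical axis, the genotype on the horizontal axis, and circles, triangles and squares for the runs of label numbers. Bars are the mean ± SD over cells and the text in each panel gives how many neurons had a count. Hcn2 and Hcn4 lie at 0 in most neurons, while Nalcn, Unc79 and Unc80 fall into a set at 0 and a set mostly between 4 and 9.

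Hcn2 lies on chromosome 10 at 79716634 to 79736108 on the plus strand, Hcn3 on chromosome 3 at 89146775 to 89160157 on the minus strand and Hcn4 on chromosome 9 at 58823512 to 58860955 on the plus strand (mm10, as in the deposited table). The authors accepted reads with at least 90% identity to the reference, so it matters how far the 3 coding sequences differ. The stretches below, of 60 bases each, lie in exon 4 of each gene, in the part that encodes the pore-lining last membrane segment, and are shown because, among aligned stretches within 1 exon, these have the fewest differences between the 3 genes. They come from GENCODE vM21 (GRCm38), and capitals mark bases that differ from Hcn2.
Hcn2, chr10:79729004-79729063, plus strand: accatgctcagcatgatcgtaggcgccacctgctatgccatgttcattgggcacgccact
Hcn3, chr3:89150910-89150969, minus strand: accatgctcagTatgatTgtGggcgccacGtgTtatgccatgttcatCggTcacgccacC
Hcn4, chr9:58855636-58855695, plus strand: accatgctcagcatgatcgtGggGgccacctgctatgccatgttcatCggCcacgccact
Counted from 1 at the 5′ end of the stretch, Hcn3 differs from Hcn2 at 8 bases (C12T, C18T, A21G, C30G, C33T, T48C, G51T and T60C) and Hcn4 at 4 (A21G, C24G, T48C and G51C).

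Along the whole coding sequences, windows of 90 bases (a read after trimming) were compared without gaps. With up to 9 mismatches allowed, 4 of 2500 Hcn2 windows matched Hcn3, 15 of 2500 matched Hcn4, and 126 of 2248 Hcn3 windows (5.60%) matched Hcn4. No window was identical between any pair. All deposited counts of Hcn2, Hcn3 and Hcn4 were whole numbers, whereas Nalcn, Unc79 and Unc80 had counts that were not whole in 17, 16 and 27 neurons. How the authors' software shared reads among similar genes is not given in the sources used here.

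Hcn2, the subunit with strong cyclic AMP sensitivity, was counted in 3 of 33 3xTg neurons with 2, 4 and 6 counts and in 2 of 35 WT neurons with 2 and 5 counts. The summed counts of 12 and 7 differed by less than counting error allows, with a log2 ratio of 0.67 (95% interval −0.79 to 2.25). Hcn4, the slow subunit known from the sinoatrial node, was counted in 1 3xTg neuron with 45 counts and in 3 WT neurons with 2, 2 and 52 counts. No neuron of the other 64 had a count of Hcn4. The level of Hcn4 in each genotype was therefore set by 1 neuron, which held all of the 45 counts in 3xTg and 92.9% of the 56 counts in WT. Neither Hcn2 nor Hcn4 passed the filter of 7 cells.

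Hcn3, a subunit that responds little to cyclic AMP, had the most counts of these 3 HCN genes. It was counted in 12 of 33 3xTg neurons (36.4%, exact 95% interval 20.4 to 54.9) and in 5 of 35 WT neurons (14.3%, 4.81 to 30.3). In the 12 3xTg neurons the counts were 1, 1, 5, 8, 9, 13, 24, 51, 90, 105, 107 and 148, and in the 5 WT neurons 1, 1, 1, 23 and 112. The groups overlapped, since most neurons of both genotypes were at 0, while 7 of 33 3xTg and 2 of 35 WT neurons had at least 10 counts.

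The counts of Hcn3 summed to 562 in 3xTg and 138 in WT, which is 15.3 (14.1 to 16.6) against 4.06 (3.41 to 4.79) counts per 1000000 counts (CPM), or 3.77-fold higher in 3xTg. A single WT neuron held 81.2% of the WT counts. Without that neuron the log2 ratio was 4.29 in place of 1.92, and without the 3xTg neuron with most counts it was 1.51. The mean of log2(normalized count + 1) was 1.53 ± 2.47 (SD, n = 33 cells) in 3xTg and 0.37 ± 1.25 (SD, n = 35 cells) in WT, a difference of 1.15 that is smaller than the SD over 3xTg cells.

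In the first runs Hcn3 was counted in 8 of 21 3xTg neurons with 414 counts and in 3 of 17 WT neurons with 1 count each. In the second runs it was counted in 4 of 12 and 2 of 15 neurons, with 148 and 135 counts, and the log2 ratio of the sums was 0.09 (−0.26 to 0.44). The share of neurons with Hcn3 was thus higher in 3xTg in both runs, while the higher summed level came from the first. Median genes detected were 8948.5 in the 3xTg neurons with Hcn3 and 7648 in those without, and 8276 and 7008 in WT. The part of the number of genes detected in the difference was not tested. With cells thinned to 700471 counts, which leaves out 2 3xTg and 5 WT cells of lower totals, the shares were 38.7% and 13.3%.

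Pklr, the liver and red cell pyruvate kinase gene, ends next to Hcn3 on the opposite strand. The 2 do not overlap in the deposited table but share 711 bases in GENCODE vM21, and whether the authors' counting used strand is not given in the sources used here. Pklr had 15 counts in 3xTg and 6 in WT, and was counted in 4 of the 17 neurons with Hcn3.

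Nalcn, the gene of the pore (chromosome 14, 123276641 to 123627144, minus strand), was counted in 23 of 33 3xTg neurons (69.7%, 51.3 to 84.4) and in 13 of 35 WT neurons (37.1%, 21.5 to 55.1). In the neurons with a count, the count ran from 6 through a median of 87 to 289.6 in 3xTg and from 1 through a median of 61.0 to 417.0 in WT. The 2 sets overlapped, and the 5 highest WT neurons (195.7, 223.7, 278, 326 and 417.0 counts) each had more counts than 32 of the 33 3xTg neurons, and the top 2 had more than all 33. More 3xTg neurons had Nalcn, and the highest counts were in WT neurons.

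The 2 ways of averaging Nalcn gave different answers. The mean of log2(normalized count + 1) was 3.99 ± 2.92 (SD, n = 33 cells) in 3xTg and 2.26 ± 3.25 (SD, n = 35 cells) in WT, a difference of 1.72. The counts summed to 1928 and 1823, or 52.5 (50.2 to 54.9) and 53.6 (51.2 to 56.1) CPM, a log2 ratio of −0.03 (−0.12 to 0.06). That ratio was 0.33 (0.20 to 0.46) in the first runs and −0.57 (−0.71 to −0.43) in the second, on opposite sides of 0. A single neuron held 54.8% of the WT counts in the first runs, and another 32.6% in the second. Among neurons with a count alone, the mean log2 level was 5.72 ± 1.41 (SD, n = 23 cells) in 3xTg and 6.09 ± 2.16 (SD, n = 13 cells) in WT.

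The higher share of neurons with Nalcn in 3xTg was present in both runs, at 14 of 21 against 5 of 17 in the first and 9 of 12 against 7 of 15 in the second. The difference of the means was 1.92 and 1.50. It was 1.64 after the same thinning and 2.19 in the 28 3xTg and 30 WT neurons in which Pvalb, Tmem119, P2ry12 and Aldh1l1 were all at 0. These mark inhibitory neurons, microglia and astrocytes, and cells had been kept as negative for them, but 5 neurons of each genotype had a count. Neurons with Nalcn had more genes detected than those without, with medians of 9293 against 6437.5 in 3xTg and 8063 against 6146 in WT. The part of that in the difference was not tested. Of the 12821 genes, 2.12% had a share difference at least as large as Nalcn, and 12.1% at least as large as Hcn3. By the difference of the means these values were 5% for Nalcn and 16.96% for Hcn3. By the summed log2 ratio, 49.02% of the genes lay at least as high as Nalcn and 3.21% at least as high as Hcn3. Nalcn thus stood high by share and near the middle of all genes by summed level.

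**Figure D2:**
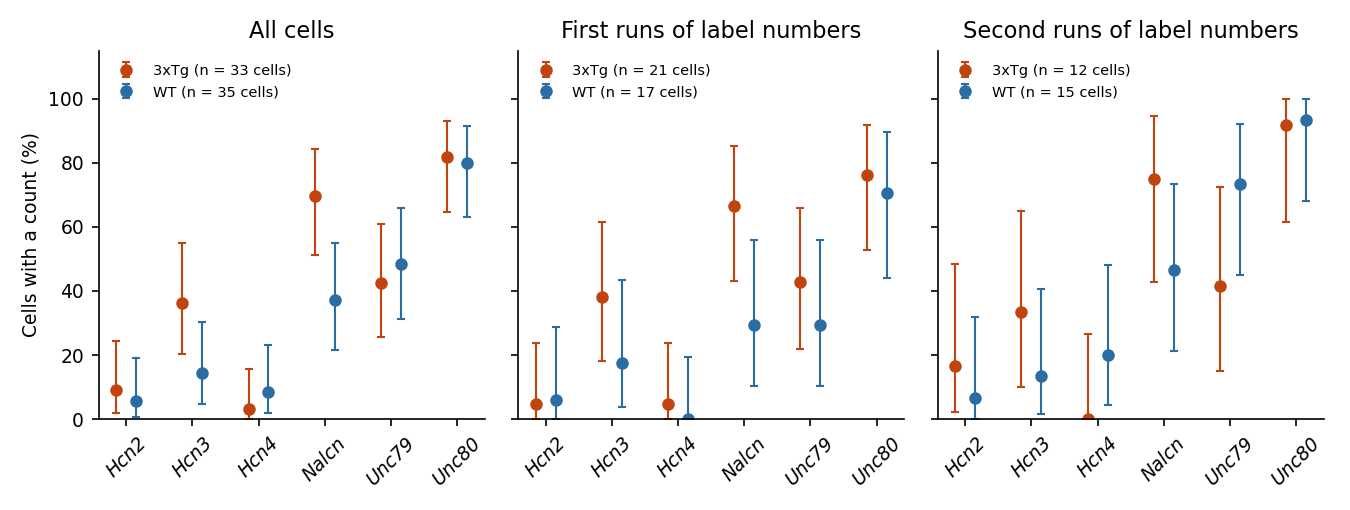
The share of neurons with at least 1 count is plotted in percent for each gene, for all cells, the first runs and the second runs. Points are shares and bars exact Clopper-Pearson intervals at 95%, which cover counting error only. Nalcn and Hcn3 lie higher in 3xTg in all 3 panels, and Unc79 changes sides between the first and the second runs.

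Unc80, the scaffold protein of the complex (chromosome 1, 66468447 to 66699148, plus strand), was the most widely counted of the 6 genes. It was counted in 27 of 33 3xTg neurons (81.8%, 64.5 to 93.02) and 28 of 35 WT neurons (80%, 63.1 to 91.6). In the neurons with a count, the count ran from 2 through a median of 151 to 520.5 in 3xTg and from 1 through a median of 215.6 to 602.9 in WT. The shares were nearly equal, and the ranges overlapped, with the median lower in 3xTg.

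Summed, Unc80 came to 4566 counts in 3xTg and 7097 in WT, or 124.4 (120.8 to 128.0) against 208.6 (203.8 to 213.5) CPM, which is 1.68-fold higher in WT (log2 ratio of 3xTg over WT −0.75, −0.80 to −0.69). The mean log2 level was 5.42 ± 2.99 (SD, n = 33 cells) and 5.80 ± 3.38 (SD, n = 35 cells), a difference of −0.37 that is far smaller than the SD over cells. The summed ratio kept its sign in the first (−0.53) and second runs (−0.81), and no single neuron held more than 11.4% of its genotype's counts. Of the 12821 genes, 17.9% had a summed log2 ratio at most that of Unc80. In neurons with a count, the mean log2 level differed by −0.88 in the first runs and −0.15 in the second.

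Unc79, whose protein binds UNC80 in the complex (chromosome 12, 102948859 to 103183997, plus strand), was counted in 14 of 33 3xTg neurons (42.4%, 25.5 to 60.8) and 17 of 35 WT neurons (48.6%, 31.4 to 66.01). The count ran from 1 through a median of 44.4 to 100.4 in the 3xTg neurons with a count and from 2 through a median of 34 to 260.3 in the WT neurons. Only WT neurons had more than 100.4 counts, and they were 4 of the 17. Summed, 615 and 1133 counts gave 16.8 (15.5 to 18.1) and 33.3 (31.4 to 35.3) CPM, a log2 ratio of −0.99 (−1.14 to −0.85) that lies just inside a 2-fold difference.

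That ratio differed between the runs. In the first runs Unc79 was counted in 9 of 21 3xTg and 5 of 17 WT neurons, with a log2 ratio of 0.16 (−0.06 to 0.38). In the second runs it was counted in 5 of 12 3xTg and 11 of 15 WT neurons, with a log2 ratio of −2.10 (−2.33 to −1.87). By summed counts, 23.9% of the 12821 genes were at least 2-fold higher and 14.5% at least 2-fold lower in 3xTg in the first runs, and 12.6% and 22.5% in the second. The WT neurons of the second runs stood apart, at 55.1 CPM against 12.9 to 19.5 CPM in the other 3 sets of the runs. Whether the genotype ratio differs between the runs was not tested, since no replicate sample is labelled. Without the WT neuron with most counts (260.3) the ratio over all cells was −0.66. That neuron held 32.3% of the WT counts in the second runs, and another held 52.1% of those in the first.

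**Figure D3:**
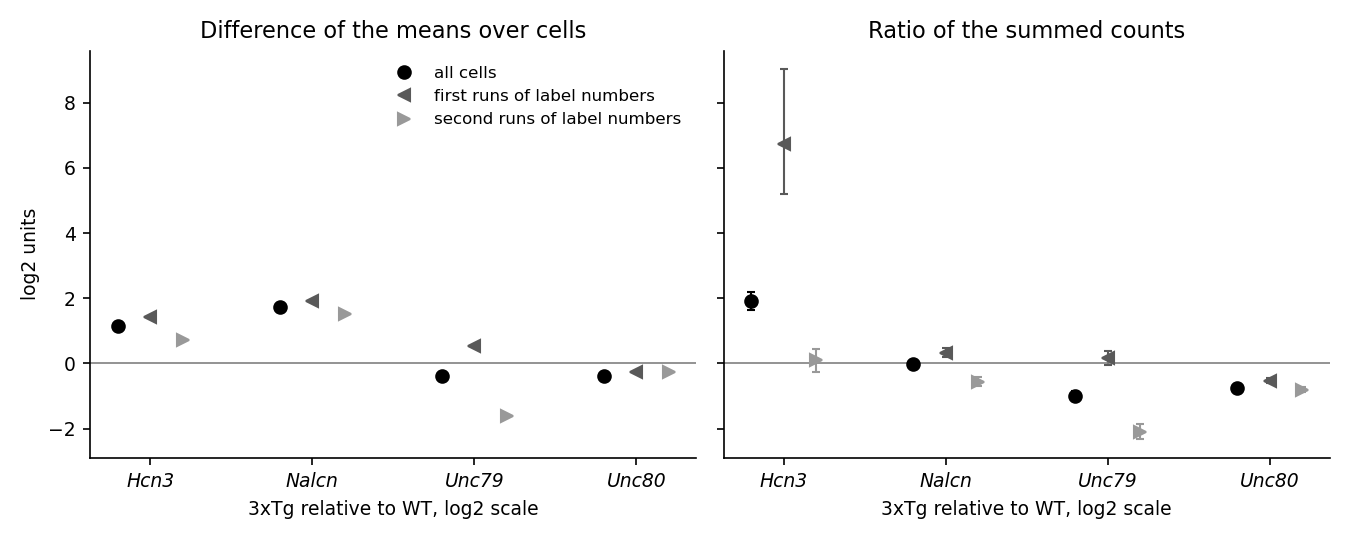
The value of 3xTg relative to WT is plotted on a log2 scale for the 4 genes that passed the filter, as the difference of the means over cells (left) and the ratio of the summed counts (right, bars are exact intervals at 95% for counting error), for all cells and for each pair of runs. Nalcn lies at 1.50 to 1.92 on the left and at −0.57 to 0.33 on the right, and the summed ratios of Nalcn and both values of Unc79 in the first and second runs lie on opposite sides of 0.

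These differences were read against all genes tested. Of the 12821 genes, 10.8% had summed counts at least 2-fold higher in 3xTg and 12.5% at least 2-fold lower. Of the 4 members that passed the filter, Hcn3 was in the first set and no member in the second. The difference of the means was at least 1 in 22% of genes and at most −1 in 0.718%, with Hcn3 and Nalcn in the first set and no member in the second. A share at least 20 percentage points higher in 3xTg was found in 15.4% of genes and one at least 20 points lower in 0.546%, again with Hcn3 and Nalcn in the first set and no member in the second. Hcn3 was counted in 5 WT neurons, fewer than the 7 cells of the filter, and so passed it only through its 3xTg neurons. Its place in these sets therefore lends no support to a difference. Relative to the median gene, the difference of the means was 1.34 for Nalcn, 0.77 for Hcn3, −0.77 for Unc79 and −0.76 for Unc80.

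Levels of different genes can be set side by side only per length, and here summed CPM were divided by the coding length. The coding lengths in GENCODE vM21 are 2589 bases for Hcn2, 2337 for Hcn3, 3603 for Hcn4, 5217 for Nalcn, 7962 for Unc79 and 9978 for Unc80. In WT the levels were 20.9 CPM per 1000 coding bases for Unc80, 10.3 for Nalcn, 4.18 for Unc79, 1.74 for Hcn3, 0.457 for Hcn4 and 0.0795 for Hcn2. In 3xTg they were 12.5 for Unc80, 10.1 for Nalcn, 6.55 for Hcn3, 2.10 for Unc79, 0.340 for Hcn4 and 0.126 for Hcn2.

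Unc80 stood first and Nalcn second in both genotypes, and Hcn3 and Unc79 changed places. The level of Unc80 was 2.04 times that of Nalcn in WT and 1.24 times in 3xTg. The 3 NALCN complex genes together were 15.6 times the 3 HCN genes in WT and 3.51 times in 3xTg, on the same scale. Without the WT neuron that held most counts of Hcn3, the WT ratio was 40.1, and the WT level of Hcn3 was 0.336, below that of Hcn4 at 0.469. With all cells, the counting intervals of neighbours in either order did not overlap. The ranges over cells did, since every gene had neurons at 0 in both genotypes.

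**Figure D4:**
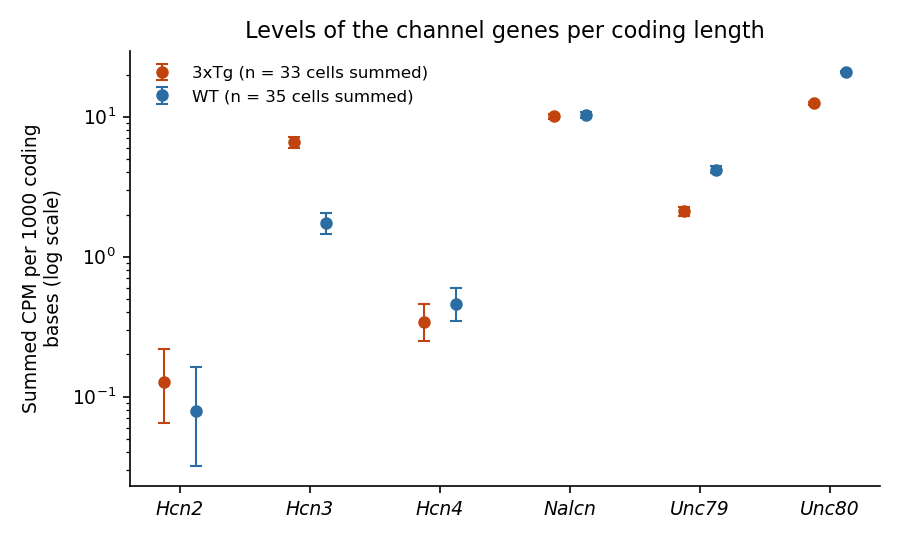
Summed CPM per 1000 coding bases is plotted on a log axis for the 6 genes in 3xTg (33 cells summed) and WT (35 cells summed), with exact Poisson intervals at 95%. Unc80 and Nalcn lie at 10.1 to 20.9 in both genotypes, Hcn2 and Hcn4 below 1, and Hcn3 is the gene whose levels lie farthest apart among those above 1.

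Transcripts of the NALCN complex were often counted in part. All of Nalcn, Unc79 and Unc80 were counted in 12 of 33 3xTg and 6 of 35 WT neurons, exactly 2 of them in 11 and 14, exactly 1 in 6 and 12, and none in 4 and 3. Unc80 was counted in 33 of 36 neurons with Nalcn and in 22 of 32 without it. Unc79 was counted in 13 of 23 neurons with Nalcn and 1 of 10 without it in 3xTg, and in 6 of 13 and 11 of 22 in WT. A neuron with a count of 0 may still hold the transcript.

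Over all cells of a genotype, those at 0 included, the 3 genes had low correlations with each other. Spearman's rank correlation between Nalcn and Unc80 was 0.16 over the 33 3xTg cells and 0.28 over the 35 WT cells, between Nalcn and Unc79 0.05 and 0.04, and between Unc79 and Unc80 0.05 and 0.04. These values share each cell's depth and are given as descriptions. Cells with no count of any of the 6 genes numbered 4 in 3xTg and 3 in WT.

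**Figure D5:**
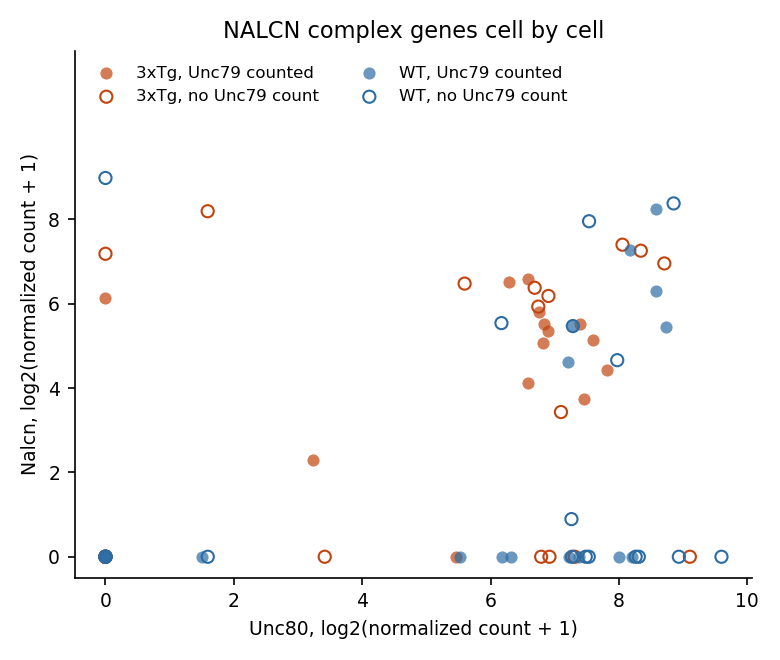
Each point is 1 neuron, with Unc80 on the horizontal and Nalcn on the vertical axis, both as log2(normalized count + 1). Filled points had a count of Unc79, and points at 0 on both axes overlap. Neurons with both Nalcn and Unc80 lie mostly between 4 and 9 on both axes, and neurons on the lower axis had Unc80 without Nalcn.

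Counts of 2 HCN genes were present in 2 of 68 neurons, 1 of each genotype. Hcn4 was counted in 0 of the 17 neurons with Hcn3 and 4 of the 51 without, and these genes were counted in too few neurons to compare the shares. All 17 neurons with Hcn3 had Unc80, as did 38 of the 51 without Hcn3. Nalcn was counted in 12 of the 17 and 24 of the 51. All 4 neurons with Hcn4 had Unc79, and so did 27 of the other 64.

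Dopamine neurons of this region differ in subtype, and 6 genes that mark such differences were set beside the members. Slc17a6, which encodes the vesicular glutamate transporter VGLUT2, was counted in 12 of 31 neurons with Unc79 and in 2 of 37 without it. By genotype this was 6 of 14 against 2 of 19 in 3xTg and 6 of 17 against 0 of 18 in WT. Spearman's correlation between Unc79 and Slc17a6 was 0.45 in 3xTg and 0.54 in WT. Both genes were higher in neurons with more genes detected, with correlations of 0.59 and 0.42 for Unc79 and 0.30 and 0.18 for Slc17a6, and the part of that in their joint detection was not tested.

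Aldh1a1, an enzyme of retinoic acid synthesis that marks a subset of dopamine neurons, was counted in all 13 neurons without Unc80 and in 37 of the 55 with it. It was counted in 8 of the 17 neurons with Hcn3 and 42 of the 51 without. Sox6, a transcription factor gene that also marks a subset, was counted in 8 of the 17 and 8 of the 51. Calb1 and Cck were counted in most neurons with and without Hcn3, Nalcn, Unc79 or Unc80, and Otx2 in 7 of 36 neurons with Nalcn and 8 of 32 without. These pairs are a selection from 24, made after their values had been seen.

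Of the 6 genes, only Unc80 was counted in at least 80% of the neurons of a genotype, and its nearest genes were sought among the 3988 genes that reached that share. The nearest, by the mean of the within-genotype Spearman correlation, were B3galnt1, which encodes a glycosyltransferase (0.58 over 33 3xTg cells and 0.56 over 35 WT cells), Ccdc50 (0.42 and 0.58) and Tsnax (0.52 and 0.48). The median gene had a mean correlation of 0.09.

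Genes whose proteins bind or regulate the channels were read from lists. Of 10 HCN-associated genes, 6 passed the filter, none was at least 2-fold higher and 1 at least 2-fold lower in 3xTg by summed counts, with a median log2 ratio of −0.35 against −0.05 over all genes tested, of which 12.5% were that much lower. By the difference of the means none passed 1 in either direction, and the median was 0.65, against 0.38 over all genes. Vapa, which encodes a membrane tether, was at 158.9 CPM in 3xTg and 157.0 in WT, and Nedd4l, a ubiquitin ligase gene, at 109.1 and 114.2. Vapb was at 34.3 and 38.7 CPM and Kctd3 at 16.7 and 24.2. Flna, which encodes filamin A, was the lower one at 5.47 against 11.2 CPM, with a difference of means of 0.08, and is named after its value was seen. Of 8 adenylyl cyclases, the enzymes that make cyclic AMP, 6 passed and 3 were at least 2-fold lower in 3xTg, against 12.5% of all genes, with a median log2 ratio of −0.94. By the difference of the means none passed 1 in either direction and the median was 0.15. These were Adcy6 (8.93 against 21.1 CPM), Adcy9 (4.49 against 9.49) and Adcy7 (0.518 against 8.76), while Adcy3 (12.4 against 12.9) and Adcy5 (12.4 against 10.85) lay closer. The difference of the means had the opposite sign for Adcy6 (0.27) and Adcy9 (0.03) and was −0.65 for Adcy7.

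Of 11 NALCN partners and receptors that act on it, 8 passed and none was 2-fold apart by summed counts, with a median log2 ratio of 0.05. By the difference of the means Ntsr1 (2.15) and Drd2 (1.25) were at least 1 higher, against 22% of all genes, with none lower and a median of 0.60. Fam155a, the gene of the fourth protein of the complex, was counted in 30 of 33 3xTg and 33 of 35 WT neurons at 174.0 and 159.6 CPM, and its relative Fam155b (Tmem28 in the table) in none. Gabbr1, a GABA-B receptor gene, was at 167.9 and 170.3 CPM. Tacr1, the substance P receptor gene, was counted in all 68 neurons at 38.9 and 57.5 CPM. Ntsr1, the neurotensin receptor gene, was counted in 29 of 33 3xTg and 20 of 35 WT neurons at 138.9 and 87.5 CPM. Drd2, the dopamine autoreceptor gene, was counted in 22 and 13 neurons at 25.8 and 27.7 CPM.

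Background potassium channels oppose these inward currents. Of 12 two-pore potassium channel genes, 4 passed and 1 was at least 2-fold lower in 3xTg, against 12.5% of all genes, with none higher and a median log2 ratio of −0.64. This was Kcnk3 (TASK-1), counted in 31 of 33 3xTg and all 35 WT neurons at 11.9 and 45.9 CPM. Kcnk1 was counted in 24 and 17 neurons at 67.99 and 59.64 CPM, Kcnk2 in 29 and 29 at 19.6 and 30.1 CPM, and Kcnk6 in 29 and 31 at 13.92 and 21.99 CPM. By the difference of the means Kcnk1 was higher by at least 1 (1.69) and Kcnk3 lower (−1.18), against 22% and 0.718% of all genes, with a median of 0.13 over the 4 and 0.38 over all genes. Of 9 other cation channel genes of the TRP family, 8 passed, 3 were at least 2-fold higher in 3xTg, against 10.8% of all genes, and none lower, with a median log2 ratio of 0.03. By the difference of the means only Trpc6 was at least 1 higher (1.28), against 22% of all genes, none was lower and the median was 0.44, against 0.38 over all genes. The 3 were Trpc1 (5.47 against 2.67 CPM), Trpm2 (8.91 against 4.44) and Trpc7 (4.41 against 0.294), whose differences of means were 0.68, 0.48 and 0.24. Trpc6 was at 125.2 and 113.7 CPM, Trpm7 at 63.03 and 66.51, Trpc4 at 20.3 and 23.5 and Trpm4 at 6.02 and 8.91.

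Markers of other cell types were present, with summed levels that differed between the genotypes and for some lists lay above those of the members. Mbp, a myelin gene, was counted in 32 of 33 3xTg and all 35 WT neurons, and Gad2, a GABA synthesis gene, in all 68. The 4 astrocyte markers summed to 13.3 CPM in 3xTg (0 to 272.4 per cell) and 131.2 in WT (0 to 2410), with Aldh1l1 at 0 in every cell. The 4 microglia markers summed to 101 (0 to 3294) and 357.2 CPM (0 to 2329), with Tmem119 in 1 WT cell. The 4 oligodendrocyte markers summed to 86.1 (0 to 555.6) and 277.7 CPM (1.78 to 2538), the 3 endothelial markers to 0.0272 and 0.0294 CPM, with Cldn5 and Pecam1 at 0, and the 4 GABA neuron markers to 29.1 (1.10 to 167.7) and 45.6 CPM (3.14 to 267.2). The glutamate neuron markers Slc17a6 and Slc17a7 summed to 14.98 (0 to 118.6) and 43.5 CPM (0 to 760.6). In the neurons with Pvalb, Tmem119, P2ry12 and Aldh1l1 all at 0, the difference of the means was 1.32 for Hcn3, −0.55 for Unc79 and −0.34 for Unc80, and otherwise the part of other cell types in the values was not tested.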

How the data were processed

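Reads were trimmed by 5 bases at both ends, aligned in Strand NGS (4.0) to RefSeq transcripts of mm10 with at least 90% identity and stripped of duplicates by the authors, after 28 cycles of PCR and paired reads of 100 bases. The authors deposited estimated counts per gene, of which 55.3% of those above 0 are not whole (tolerance 0.001), and log2 values normalized with DESeq2, used here as an alternative only. Here the deposited counts were divided by median-of-ratios size factors (787 genes), and log2(normalized count + 1) was averaged over cells. Rounded counts were summed per genotype. A 2-fold difference of the sums was the call, with a sum of 0 set to 3 counts where the other was higher. Intervals (exact Poisson and Clopper-Pearson, 95%) cover counting error only, and replicate cells may not be separate animals. Members, gene lists and the 20-point rule were chosen with earlier results of these data known. Genes named from a list are the up to 4 highest by summed CPM in WT that passed the filter, and others are named as seen. Coding lengths came from GENCODE vM21 in place of the planned RefSeq proteins, which were not used here. A gene of the HCN family and 1 transgene are not reported here. Calculations were tested on simulated data. Python 3.11.15 (numpy 2.4.6, scipy 1.17.1, pandas 2.3.3, matplotlib 3.10.9) and R 4.3.3 with edgeR 4.0.16 (TMM factors only) were used. Alternatives were other scalings (CPM, TMM factors, summed counts, the authors' log2 values), pseudocounts of 0.1 and 10, thinning, subsets of cells and each cell left out.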

Additional observations from a re-analysis of the deposited data

How the results depend on the processing

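Of 66 other settings of the 6 genes' differences of means, 62 kept the value within the SD over cells without turning a difference of at least 1. That SD is wide (2.49 in 3xTg and 2.77 in WT for Unc79), so this count does not measure stability. Among those kept were Unc79 at 0.54 in the first runs and −1.63 in the second, from −0.39. Turned signs of differences under 1 also counted as kept, as for Hcn2 (−0.02) and Hcn4 (0.26) in the first runs. The difference of Nalcn turned from 1.72 to −0.029 with summed counts and to −0.37 in cells with a count alone, which leaves the cells at 0 out. The cause of the first was not tested. That of Hcn2 moved from 0.07 to 0.67 with summed counts, and that of Hcn4 from −0.08 to 2.63 in cells with a count alone, which were 1 and 3 neurons. With each cell left out in turn the difference ranged from −0.01 to 0.14 for Hcn2, 0.95 to 1.33 for Hcn3, −0.25 to 0.08 for Hcn4, 1.59 to 1.92 for Nalcn, −0.52 to −0.22 for Unc79 and −0.55 to −0.21 for Unc80.

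Leaving out the neuron with most counts in each genotype, the log2 ratio of the summed counts ranged from −0.28 to 2.43 for Hcn2, 1.51 to 4.29 for Hcn3, −0.22 to 0.31 for Nalcn, −1.21 to −0.66 for Unc79 and −0.88 to −0.66 for Unc80. For Hcn4 it was 3.33 without the WT neuron, and there was no ratio without the 3xTg neuron. The summed level of the NALCN complex genes over the HCN genes in WT was 40.1, from 15.6, without the neuron with most Hcn3 counts. With a minimum of 10 counts the share of cells with Hcn2 was 0% in both genotypes, from 9.09% and 5.71%. Of the 15 pairs of genes, 14 kept their order in 3xTg without dividing by length (Unc79 then stood above Hcn3).

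The counts of genes at least 2-fold higher (1385) and lower (1607) in 3xTg, which are the background of the members, moved with the filter and the measure. They were 105 and 152 among 3988 genes counted in 80% of the cells of a genotype, 2489 and 2899 among 17940 genes with a count, and 2815 and 92 with the difference of the means (1412, or 11.01%, and 403 after the median gene was subtracted, when Nalcn at 1.34 but not Hcn3 at 0.77 was among the higher). Among alternatives added after the data were seen, a share 20 points lower was found in 70 genes, and by summed counts 3070 genes were higher and 1863 lower in the first runs, and 1610 higher and 2879 lower in the second. The counts of few neurons, the missing labels of mice and 28 cycles of PCR limit all of these values, which carry no test of the genotype.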
